A study of Mus musculus with 12 samples.

Results

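The 36 genes described here encode the enzymes of glutathione and antioxidant metabolism in mouse liver. They comprise 18 glutathione transferases, 5 genes of glutathione supply and recycling, 3 glutathione peroxidases, a group of 4 with thioredoxin, its reductase, sulfiredoxin and the quinone reductase Nqo1, a group of 4 with the peroxiredoxins and catalase, and 2 superoxide dismutases. They were listed by name and function and were matched by symbol to the 32285 genes of the tables of counts. All 36 were found.

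Livers of neonatal C57BL6/J mice were taken at postnatal day 11, dissociated and sequenced cell by cell, with 1 library from each of 6 control and 6 anemic mice. Phlebotomy-induced anemia (PIA) was produced by 5 facial vein bleeds of 20 µL per g body weight between postnatal days 2 and 10, and control pups received a needle stick without bleeding. The labels do not give the sex of a mouse. The labels name 1 batch for all 12 libraries and no gene was deleted or transgenic in either group.

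Libraries held 46252146 to 74545930 unique molecular identifiers (UMIs, each counting 1 captured RNA molecule) in 14184 to 21186 kept cells. Cells were clustered without the 36 genes, and 12 classes named from marker genes were used, with 11.9% of the cells left unnamed and 688 cholangiocyte-like cells, 601 basophil-like or mast-like cells and 476 cells of a cluster led by Acta2, Tagln and Myh11 not used. All markers of the hepatocyte-like, endothelial-like, stellate-like, macrophage-like, monocyte-like, neutrophil-like, preB-like and erythroid-like classes were highest in their own class. Of the other lists, Zbtb46 (dendritic-like), Bach2 (B-like), Eomes (NK-like) and Cd3g and Cd4 (T-like) were higher elsewhere. No marker was at 0 in its class. The clusters were named with these same lists, so these orders describe the classes and do not test their names. The library of anemia 2 stood apart, with 53.8% of the cells of 1 macrophage-like cluster, 76.0% of those of monocyte-like cluster 46 and 4730 of all 10244 monocyte-like cells. Cluster 46 held 7.495% of the monocyte-like cells of control and 54.1% of those of anemic mice. By Xist and Y-linked RNA, 4 control and 2 anemic mice were female, so sex was unequal between the groups.

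Glutathione is a tripeptide thiol made in the cytosol by glutamate-cysteine ligase and glutathione synthetase, and the liver is its main source in the body. Transferases join it to reactive compounds, peroxidases spend it to reduce peroxides, and glutathione reductase restores it with NADPH. Thioredoxin, the peroxiredoxins, catalase and the superoxide dismutases form a parallel defense, and many of these genes are targets of the transcription factor NRF2, which binds the antioxidant response element.

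A search of RefSeq promoters (GRCm38.p6, 250 bases before to 50 after each start site) for the core of that element, TGACNNNGC on either strand, is shown because 8 members that responded differently held it. Windows were present for 31 of the 36 members. The letters occurred in 25.8% of these members and in 14.0% of the 27025 gene symbols of the table. The stretches below run 5′ to 3′ along the gene with the match in capitals.
Gsta3, chr1:21240449-21240487, plus strand: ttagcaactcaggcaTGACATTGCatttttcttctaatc
Gstm5, chr3:107895797-107895835, plus strand: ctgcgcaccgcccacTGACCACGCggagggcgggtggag
Mgst1, chr6:138140456-138140494, plus strand: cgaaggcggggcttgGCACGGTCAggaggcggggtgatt
Gclm, chr3:122245408-122245446, plus strand: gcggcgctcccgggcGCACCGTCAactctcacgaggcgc
Txnrd1, chr10:82859099-82859137, plus strand: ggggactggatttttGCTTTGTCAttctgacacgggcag
Srxn1, chr2:152105537-152105573, plus strand: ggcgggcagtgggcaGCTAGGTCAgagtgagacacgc
Prdx1, chr4:116685451-116685489, plus strand: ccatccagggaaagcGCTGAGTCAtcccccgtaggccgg
Sod1, chr16:90220691-90220729, plus strand: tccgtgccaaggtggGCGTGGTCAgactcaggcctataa
A match is a description of letters only, and binding was not measured. Of these 8 genes, 4 rose (Gstm5, Mgst1, Gclm and Prdx1), 3 fell (Gsta3, Txnrd1 and Sod1) and 1 was not called (Srxn1) in hepatocyte-like cells of anemic mice. Of all genes tested in that class, 27.3% rose and 26.0% fell. These directions are of the whole class and did not all hold within it. In its largest cluster alone, Gstm5, Mgst1, Gclm and Prdx1 had log2 fold changes of -0.34, -0.16, -0.54 and 0.05, anemia over control. Those of Gsta3, Txnrd1 and Sod1 were -1.01, -0.49 and -0.18 there. Only Gsta3 and Gclm of these were called in that cluster, both lower.

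The members were first ordered by their level in each class, as UMIs of the gene scaled to a fixed total of UMIs of the class (CPM, without further scaling). In control mice, 19 members were highest in hepatocyte-like cells, 5 in erythroid-like, 4 in macrophage-like and 3 in neutrophil-like cells, with 1 each in preB-like, stellate-like, monocyte-like, endothelial-like and B-like cells. The class named highest in controls was then compared with the second class within each anemic mouse. For 22 members it was higher in all 6 anemic mice (exact two-sided sign-flip permutation test, p = 0.0312, the smallest that 6 mice can give, adjusted p = 0.0489 over the members). For Gclc the order turned, at the same p. With globin genes left out of the totals, 32 of 36 members kept their highest class and 26 were above the next one. Gclc, Gpx4, Nqo1 and Cat were then highest in erythroid-like cells, at 375, 379, 43.2 and 1287 CPM in control mice, and above the second class in 6 of 6 anemic mice each (exact permutation p = 0.0312).

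Most alpha and mu transferases and Gstz1 were highest in hepatocyte-like cells. Gsta3, an alpha class transferase at chr1:21240589-21265661, stood at 939 CPM ± 114 (SD, n = 6) in hepatocyte-like cells of control mice and at 36.2 ± 10.8 in erythroid-like cells, the second class. Hepatocyte RNA, described below, could give most of the Gsta3 measured in those erythroid-like cells. Gstz1, which isomerizes maleylacetoacetate in tyrosine breakdown, stood at 304.6 ± 36.7 against 24.4 ± 3.10 in B-like cells. Gstm1 was at 321 ± 50.2 against 59.9 ± 17.4 in monocyte-like cells. The hepatocyte-like level of Gsta4, Gstm3, Gstm4 and Gstt1 was also above the second class in every anemic mouse. Gsta1 had 6 UMIs in the 12 classes and Gsta2 had 226. The last 400 bases of the Gsta1 transcript shared 83.9% of their 60-base words with other genes, and those of Gsta2 shared 37.8%, so that counting can lose or split their reads.

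Several transferases were highest in, or well detected in, other classes. Gstm2 was highest in stellate-like cells, at 72.2 ± 18.1 CPM against 64.3 ± 27.5 in hepatocyte-like cells, and these neighbours did not differ beyond the threshold (higher in 5 of 6 anemic mice, exact permutation p = 0.0625). Gstm5 was at 51.1 ± 36.1 in erythroid-like and 26.1 ± 3.42 in hepatocyte-like cells (4 of 6 mice, exact permutation p = 0.188). Gstt2 was highest in preB-like cells at 39.4 ± 3.63, and Gsto1 in monocyte-like cells at 83.8 ± 11.9 with macrophage-like cells next at 78.7 ± 6.21. Neither order passed the test. Gstt2 was higher in 5 of 6 anemic mice (exact permutation p = 0.125) and Gsto1 in 1 of 6 (exact permutation p = 0.0625). Mgst1, a membrane-bound transferase with peroxidase activity, was at 2222 ± 231 in hepatocyte-like, 598 ± 68.9 in neutrophil-like and 522 ± 74.5 in monocyte-like cells and at 119 or less elsewhere. Mgst2 was highest in neutrophil-like cells (53.0 ± 8.71), and Mgst3 in erythroid-like cells (135.2 ± 70.8). The order passed the test for Mgst3 (6 of 6 anemic mice) but not for Mgst2 (4 of 6, exact permutation p = 0.281).

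Glutathione supply was divided between classes. Gclc, the catalytic subunit of glutamate-cysteine ligase, was level in hepatocyte-like (314 ± 21.8 CPM) and preB-like cells (310.4 ± 12.5) of control mice. In anemic mice it was 179 ± 16.7 and 359 ± 68.8, lower in hepatocyte-like cells in 6 of 6 mice. Gclm, the modifier subunit of the same enzyme, was highest in erythroid-like cells, at 429 ± 43.2 against 266 ± 12.2 in hepatocyte-like cells. Gss, glutathione synthetase, was at 72.6 ± 6.59 in hepatocyte-like cells and at 16.7 ± 3.83 or less in the other 11 classes. Gsr, glutathione reductase, was highest in neutrophil-like (885 ± 60.8) and monocyte-like cells (774 ± 52.6), which did not differ beyond the threshold (4 of 6 mice, exact permutation p = 0.125). Slc7a11, the cystine transporter subunit, was at 1329 ± 207 in neutrophil-like and 450.2 ± 85.7 in monocyte-like cells and at 30.4 or less in the others. Within the neutrophil-like class Slc7a11 ranged from 165 CPM in the cluster led by Elane and Mpo to 4801 CPM in the cluster led by Csta3 and Asprv1, as means of control mice.

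The peroxide enzymes had their highest levels in different classes. Gpx1, the main cytosolic glutathione peroxidase (chr9:108338903-108340343), was at 9557 ± 728 CPM in erythroid-like, 4034 ± 574 in macrophage-like, 3878 ± 467 in monocyte-like and 3295 ± 580 in hepatocyte-like cells of control mice. Prdx2, the abundant peroxiredoxin of red cells, was at 1574 ± 443 in erythroid-like cells and at 262 ± 21.0 or less elsewhere. Prdx1, Prdx6 and Cat were highest in hepatocyte-like cells, at 3744 ± 350, 577 ± 54.6 and 906 ± 80.7. Erythroid-like cells were second for catalase at 384 ± 59.5. Gpx3, the secreted peroxidase, was at 68.7 ± 11.5 in macrophage-like cells against 12.3 ± 6.11 in stellate-like cells of control mice, and in anemic mice the order did not pass the test (5 of 6 mice, exact permutation p = 0.156). Gpx4, which reduces lipid peroxides, ranged from 91.4 in B-like to 266 ± 41.7 in endothelial-like cells.

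Of the thioredoxin genes, Txn1, Txnrd1 and Srxn1 were highest in macrophage-like cells, at 325 ± 44.7, 260 ± 24.9 and 13.3 ± 0.997 CPM. The difference from the second class passed the test for Txn1 (6 of 6 anemic mice) but not for Txnrd1 or Srxn1 (5 of 6 each, exact permutation p = 0.0625 and 0.0938). Nqo1 was at 19.6 ± 4.02 in hepatocyte-like and 15.5 ± 9.92 in erythroid-like cells (4 of 6 anemic mice, exact permutation p = 0.969). Sod1 and Sod2, the cytosolic and mitochondrial superoxide dismutases, were highest in hepatocyte-like cells at 348 ± 20.8 and 297 ± 28.1. Monocyte-like cells were next for Sod2 at 294 ± 52.4, and the order did not pass the test (4 of 6 anemic mice, exact permutation p = 0.906). Macrophage-like cells were next for Sod1 at 226, and that order did not pass either (5 of 6, exact permutation p = 0.0625).

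**Figure D1:**
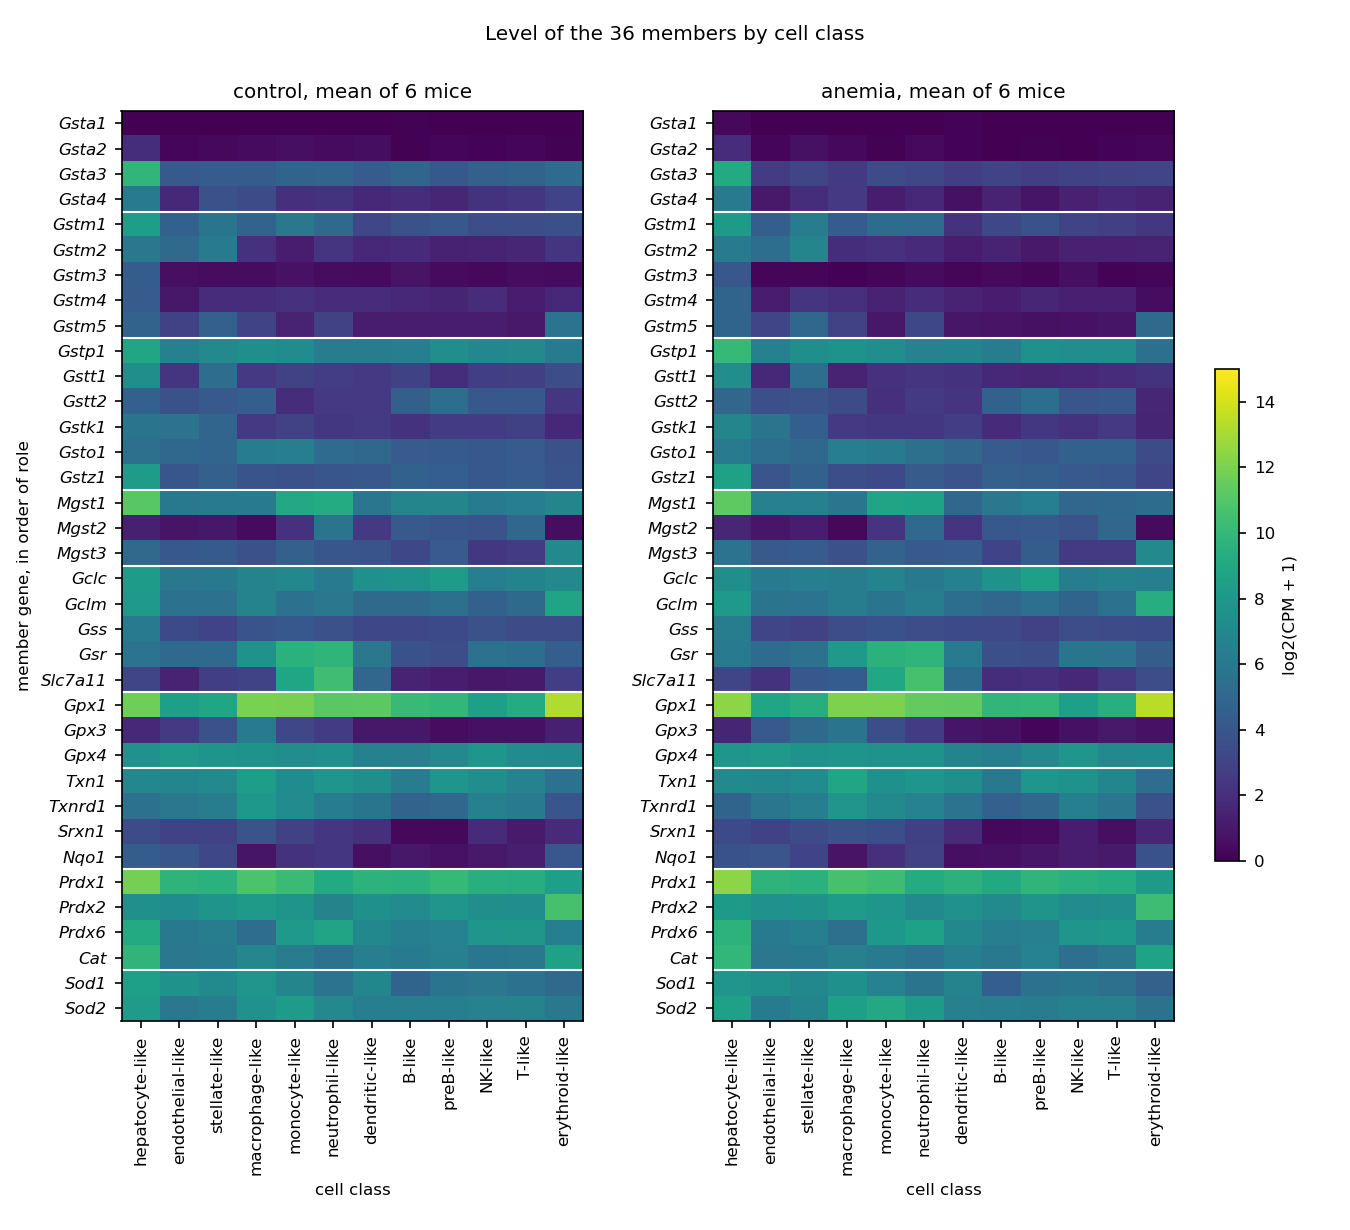
Mean level of the 36 members (rows, in order of role, white lines between roles) in 12 cell classes (columns) as log2(CPM + 1), over 6 control mice on the left and 6 anemic mice on the right. The hepatocyte-like column holds the highest value for 19 members in controls, while Gpx1, Prdx2, Gclm, Mgst3 and Gstm5 peak in erythroid-like and Slc7a11, Gsr and Mgst2 in neutrophil-like cells.

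To ask whether PIA changed these genes, the UMIs of each class were summed per mouse and 6 anemic were compared with 6 control mice (edgeR quasi-likelihood test, Benjamini-Hochberg adjusted over all genes tested in the class, called at an adjusted p under 0.05). Folds are log2 anemia over control, on counts scaled with TMM factors. Members needed 5 or more UMIs on average in the 12 mice to be tested. This held for 25 members in all 12 classes and for 35 in at least 1, while Gsta1 was tested nowhere. Of 367 member and class pairs 65 were called, 36 higher and 29 lower in anemic mice, and 30 members were called in some class.

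Most called members were higher in anemic mice in hepatocyte-like, endothelial-like and stellate-like cells and lower in the other classes with more than 1 call. In hepatocyte-like cells 20 of 35 tested members rose and 4 fell, where 27.3% of all tested genes rose and 26.0% fell (53.3% called). In endothelial-like cells 6 of 33 rose and 2 fell (7.85% and 10.8% of all genes, 18.6% called), and in stellate-like cells 8 of 32 rose and 2 fell (8.28% and 6.89%, 15.2% called). In macrophage-like cells 1 of 32 rose and 4 fell (1.48% and 1.49%, 2.97% called). Falls alone were called among the members of neutrophil-like (3 of 33), dendritic-like (3 of 28), B-like (4 of 28), preB-like (2 of 29), NK-like (3 of 29) and T-like cells (2 of 27). Of all genes 0.145% rose and 0.315% fell in neutrophil-like (0.460% called), 0.383% and 0.570% in dendritic-like (0.953%), and 0.987% and 1.24% in B-like cells (2.22%). The same shares were 0.719% and 1.29% in preB-like (2.01%), 0.194% and 0.405% in NK-like (0.599%), and T-like cells had 0.147% and 0.578% (0.725%). In erythroid-like cells 1 of 30 members rose and none fell (0.583% and 0.0818% of all genes, 0.664% called). No member was called in monocyte-like cells by edgeR (0 of 31, with 0.293% of all genes higher and 0.320% lower, 0.613% called), where 6 had an unadjusted p under 0.05 and DESeq2 called 1, Gsta3. The median log2 fold change of the members was 0.48 in hepatocyte-like cells against -0.02 over all tested genes there, and between -0.14 and 0.22 in the other classes. The values of all 6 control mice lay apart from those of all 6 anemic mice for 4 members in endothelial-like (8.64% of all tested genes), 4 in stellate-like (5.90%), 4 in macrophage-like (3.43%), 1 in monocyte-like (1.34%) and 3 in neutrophil-like cells (1.68%). This held for 2 in dendritic-like (1.12%), 4 in B-like (2.03%), 0 in preB-like (1.93%), 2 in NK-like (1.41%), 3 in T-like cells (0.981%) and 1 in erythroid-like cells (1.25%).

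**Figure D2:**
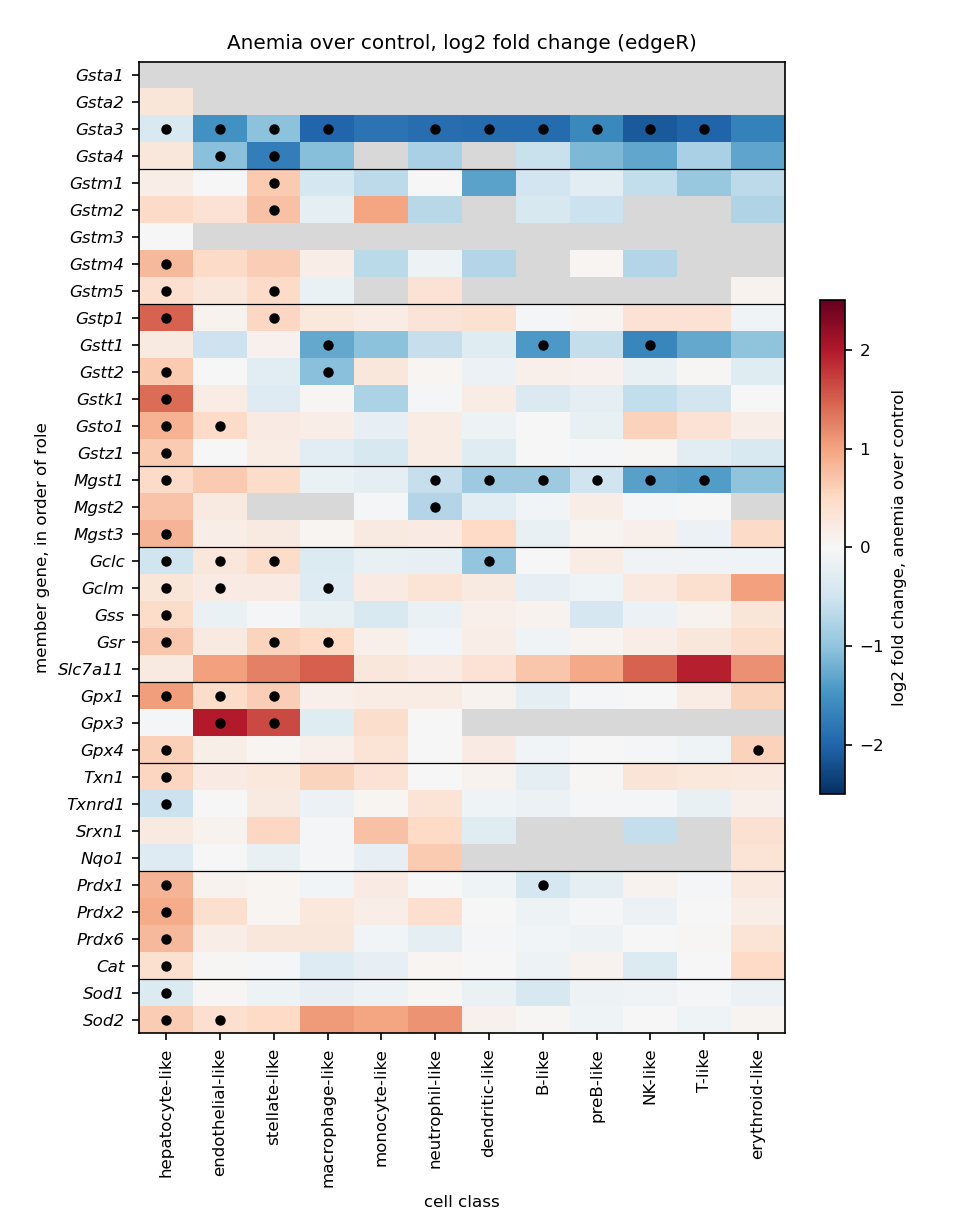
Log2 fold change, anemia over control, of each member (rows) in each class (columns) from edgeR with 6 mice per group, red where higher and blue where lower in anemia. Dots mark adjusted p under 0.05 and grey squares were not tested. The hepatocyte-like column is mostly red with 20 called rises, and the Gsta3 row is blue in all 12 classes with 10 called.

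In hepatocyte-like cells the rises were spread over the roles. They took in 5 of 6 other soluble transferases, 2 of 5 mu and 2 of 3 microsomal transferases, 3 of 5 supply genes, 2 of 3 glutathione peroxidases, all 4 peroxiredoxins and catalase, Txn1 and Sod2. The 4 falls were Gsta3, Gclc, Txnrd1 and Sod1. The groups did not overlap for 17 of the 35 tested members, where 29.4% of all tested genes were without overlap.

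Gstp1, the pi class transferase (chr19:4035407-4037985, minus strand), had the largest rise. Control mice ranged from 402 to 599 CPM (TMM-scaled, median 481) and anemic mice from 1023 to 1876 (median 1313). The groups did not overlap, and the log2 fold change was 1.48 ± 0.15 (SE, adjusted p = 4.67e-07). The last 400 bases of Gstp1 shared 90.9% of their 60-base words with Gstp2 and a pseudogene, so the value may be that of more than 1 gene.

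Gstk1, the kappa class transferase of mitochondria and peroxisomes, ranged from 39.5 to 80.4 CPM in controls (median 54.2) and from 135.9 to 178 in anemic mice (median 148). The lowest anemic mouse lay above the highest control (1.40 ± 0.14, adjusted p = 3.72e-07). Gpx1 ranged from 2422 to 4237 in controls (median 3432) and from 5392 to 8974 in anemic mice (median 6913), again without overlap (1.04 ± 0.14, adjusted p = 8.87e-06). Prdx2 moved from 159.9 to 228 (median 185) to 328 to 450.3 (median 345), at 0.93 ± 0.11 (adjusted p = 2.95e-06). The highest Prdx2 value was that of anemia 2. Gsto1, the omega class transferase, moved from 38.7 to 58.1 (median 46.1) to 67.9 to 113 (median 87.5), at 0.87 ± 0.13 (adjusted p = 3.27e-05).

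The falls were smaller. Txnrd1, cytosolic thioredoxin reductase, ranged from 43.3 to 56.6 CPM in controls (median 49.5) and from 31.8 to 38.6 in anemic mice (median 33.6), at -0.53 ± 0.10 (adjusted p = 0.000343). Gclc ranged from 293 to 353 in controls (median 334) and from 204 to 269 in anemic mice (median 226), at -0.50 ± 0.09 (adjusted p = 0.000163). Sod1 ranged from 322 to 373 (median 365) against 247 to 319 (median 281), at -0.34 ± 0.09 (adjusted p = 0.00368). None of these 3 genes overlapped between the groups. Gsta3 did, at 829 to 1155 (median 992) in controls and 509.5 to 944.5 (median 731) in anemic mice (-0.39 ± 0.13, adjusted p = 0.0201). The adjusted p of Gsta3 was 0.0513 without control 5.

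**Figure D3:**
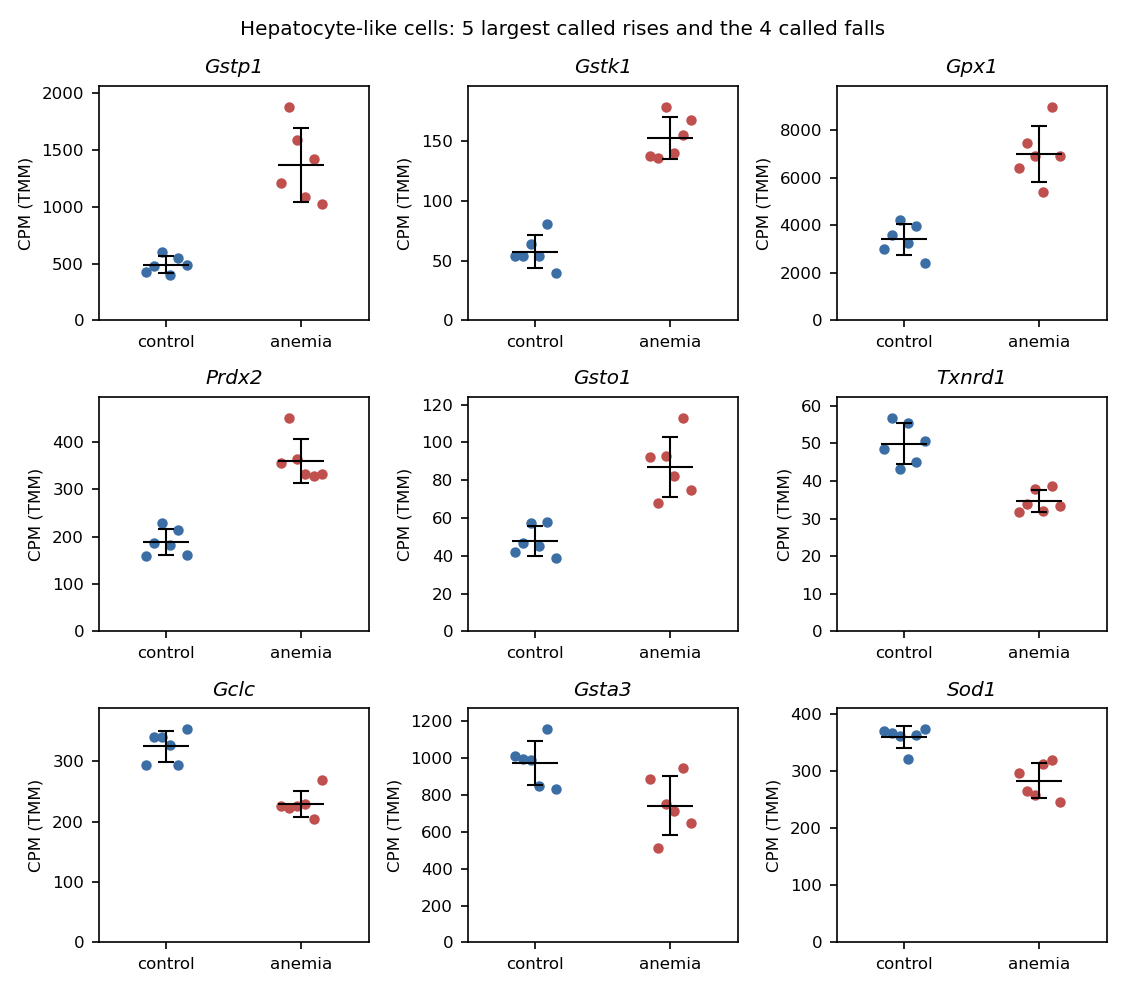
Level of the 5 members with the largest called rises and of the 4 called falls in hepatocyte-like cells, 1 point per mouse (6 control in blue, 6 anemia in red), as TMM-scaled CPM from 0, with the mean and SD in black. Gstp1, Gstk1, Gpx1, Prdx2 and Gsto1 are higher and Txnrd1, Gclc and Sod1 lower in all 6 anemic mice than in the controls, and Gsta3 overlaps.

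The hepatocyte-like class was made up differently in the groups, and its clusters differed in the level of these members. Its 4 clusters were cluster 20 (led by Apob, Cps1 and Itih2), clusters 21 and 22 (Apcs, Rbp4 and Serpina1 genes) and cluster 23 (Uox, Gnmt and Ass1). Cluster 20 held 38.0% of the hepatocyte-like cells of control and 18.1% of those of anemic mice, and cluster 23 held 14.9% and 32.0%. The class leaves out cluster 27 (led by Fabp1, Uox and Ttc36), with 4319 cells, 70.9% of them from anemic mice. That cluster raised 8 hepatocyte markers but was left unnamed for its few UMIs per cell. The effect of leaving it out was not tested. The median share of mitochondrial UMIs was 15.8% in cluster 20 and 1.08% to 1.85% in the other 3, and the nuclear RNA Malat1 was at 12670 CPM in cluster 20 and at 1222 to 2219 in the others. Members differed between these clusters within the control mice. Gpx1 was at 911 CPM in cluster 20 and 10890 in cluster 23, Prdx1 at 1669 and 10380, Gstp1 at 135 and 1452, and Gsta3 at 606 and 2089. Sod1 went the other way, at 438.5 and 253, as did Txnrd1, at 64.2 and 26.7.

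When each cluster was tested alone, most rises were not seen. Of the 20 members that rose over the class, 8 to 13 were above 0 within a cluster and 1 or 2 were called. In all, 6, 6, 4 and 7 members were called in clusters 20, 21, 22 and 23, where 7.62%, 5.52%, 5.69% and 4.56% of all tested genes were. Gpx1 was between -0.10 and 0.11 in the 4 clusters, Prdx2 between -0.08 and 0.25, and Prdx1 between -0.13 and 0.05. Gclm was higher over the class (0.30) but below 0 in all 4 clusters, from -0.54 to -0.16, and was called lower in clusters 22 and 23.

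Other members kept 1 direction in all 4 clusters. Gstk1 was higher by 0.61 to 0.82 and was called in 3 of 4 clusters. Gsta3 was lower by 1.01 to 1.16 on the log2 scale in each, and Gclc by 0.57 to 0.92, and both were called in all 4. In cluster 23 Gsta3 stood at 2089 CPM in control and 885 in anemic mice. Nqo1, the quinone reductase, was not called over the class (-0.33), was at -1.21 to -0.86 in the clusters and was called in clusters 20, 21 and 23, where it stood at 36.2 CPM in control and 19.4 in anemic mice of cluster 23. Gstp1 was higher in each, by 0.29 to 0.57, and was called in cluster 22.

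**Figure D4:**
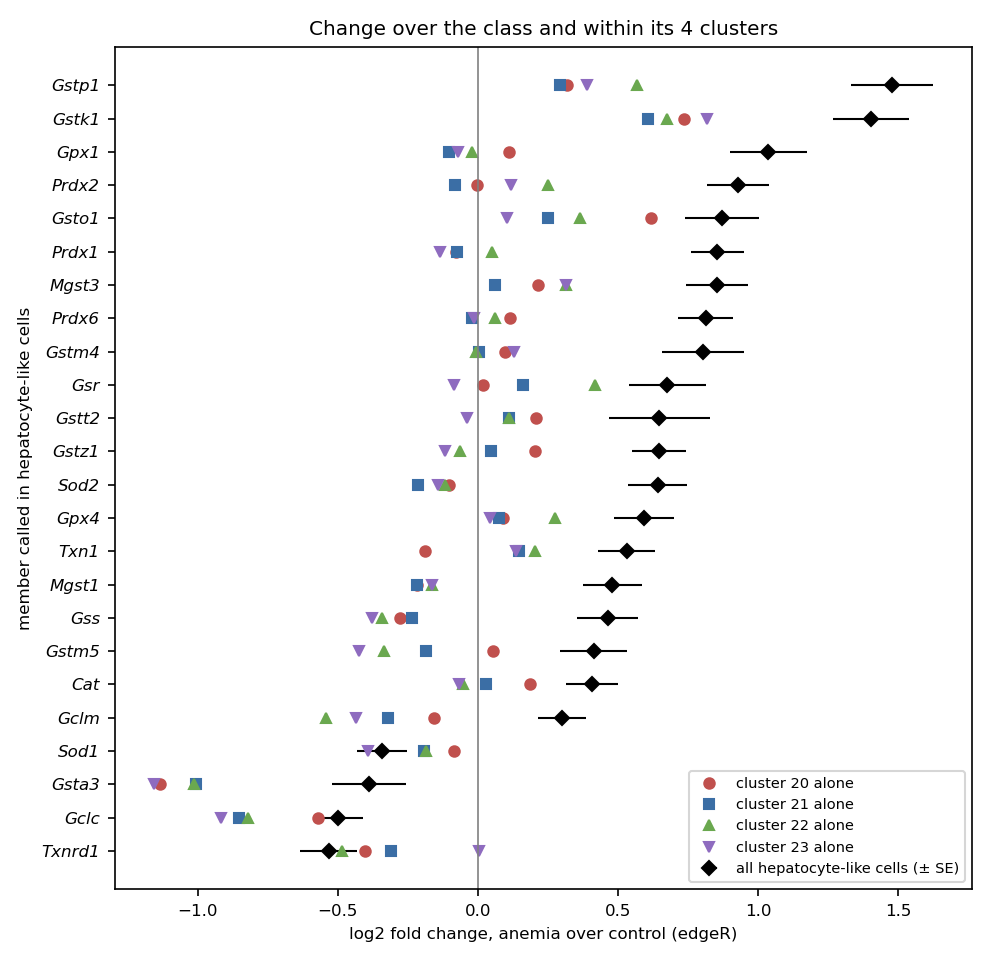
Log2 fold change, anemia over control (edgeR), of the 24 members called in hepatocyte-like cells. Black diamonds are the whole class with SE and coloured symbols are its 4 clusters tested alone. Most rises sit near 0 within clusters, Gstk1 stays between 0.61 and 0.82, and Gsta3 lies between -1.16 and -1.01 in the clusters against -0.39 over the class.

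RNA of other cells also moved with the group in hepatocyte-like cells. The 13 erythroid markers summed to 1146 to 6600 CPM in control and 9029 to 20000 in anemic mice, with none at 0, the 8 endothelial markers to 451 to 720 and 78.5 to 297.5, and the 7 stellate markers to 444 to 718 and 27.8 to 183. Their part in the changes of Gpx1, Prdx2 and the other members was not tested. Leaving out TMM factors shifted the median of all genes in this class by -0.38, and 16 in place of 24 members were then called. Cat was then at 0.03, Gclm at -0.08, Gpx1 at 0.66, Prdx2 at 0.55 and Gsto1 at 0.49. With doublets left out 19 members were called, Gclm was at 0.0045, and Gsta3, Gclc and Sod1 were at -0.65, -0.78 and -0.51. These counts are not set beside the share of all genes called in the same settings. A loss of calls particular to the members cannot be read from them.

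Outside hepatocyte-like cells, the transferases Gsta3, Gstt1 and Mgst1 were each called lower in several classes. Gsta3 was lower in all 12 classes and was called in 10, all except monocyte-like and erythroid-like cells. In macrophage-like cells control mice ranged from 17.7 to 29.0 CPM (TMM-scaled, median 20.2) and anemic mice from 1.76 to 11.3 (median 4.95), without overlap (-1.99 ± 0.34, adjusted p = 0.00955). In B-like cells the ranges were 19.96 to 46.9 and 4.27 to 14.2 (-1.93 ± 0.25, adjusted p = 0.000498). Endothelial-like cells went from 14.0 to 24.1 down to 1.01 to 11.3 (-1.51 ± 0.32, adjusted p = 0.00543). In the other called classes the fold ranged from -2.09 (NK-like) to -1.03 (stellate-like).

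Gstt1, the theta class transferase, fell in macrophage-like (-1.29 ± 0.28), B-like (-1.44 ± 0.28) and NK-like cells (-1.63 ± 0.34), at control means of 5.16, 7.54 and 7.04 CPM. Mgst1 fell in neutrophil-like, dendritic-like, B-like, preB-like, NK-like and T-like cells. In B-like cells Mgst1 ranged from 98.8 to 179 CPM in controls and from 51.2 to 92.2 in anemic mice (-0.92 ± 0.15, adjusted p = 0.00334). In T-like cells the ranges were 75.5 to 144 and 17.6 to 65.2 (-1.40 ± 0.28, adjusted p = 0.0211), and in NK-like cells 60.1 to 102 and 16.8 to 52.2 (-1.35 ± 0.26, adjusted p = 0.0243).

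Hepatocyte RNA in those classes moved with these falls. The 8 hepatocyte markers (Alb, Apoa1 and others) summed to 1393 to 2264 CPM in macrophage-like cells of control and 257.5 to 1274 of anemic mice, and to 3057 to 4331 and 419 to 2574 in T-like cells, with no marker at 0. Their median was lower in anemic mice in all 12 classes, with the lowest mouse anemia 2 in 9 classes and anemia 3 in the other 3, macrophage-like, neutrophil-like and preB-like. From the ratio of a member to these markers in hepatocyte-like cells of the same mouse, the level that hepatocyte RNA alone could give was computed as a description. For Gsta3 it was between 75.2% (macrophage-like) and 111% (B-like) of the measured control level in the 11 classes. For Gstt1 it was between 60.9% and 117%, except 7.21% in stellate-like cells, where Gstt1 was not called. For Mgst1 the shares were 64.4% (B-like), 81.1% (NK-like) and 83.1% (T-like), but 11.1% in neutrophil-like cells, where control mice ranged from 627 to 892 CPM and anemic mice from 446 to 494 (-0.57 ± 0.10, adjusted p = 0.0171). Cells were also split by their share of these markers within each class and mouse. A difference in hepatocyte RNA between the groups can remain after such a split, so it cannot separate the falls from that RNA. In the cells of each mouse with less hepatocyte RNA, Gsta3 was called in all 11 classes except NK-like (-1.89, adjusted p = 0.0567) and erythroid-like cells (-2.01). In those cells Gstt1 was no longer called in B-like (-1.32, adjusted p = 0.129) and NK-like cells (-1.57, adjusted p = 0.181), nor Mgst1 in preB-like (-0.42, adjusted p = 0.0608) and T-like cells (-1.24, adjusted p = 0.0553). Single mice ended the call of Gsta3 in stellate-like (2 of 12), NK-like (4) and T-like cells (5), and of Mgst1 in dendritic-like (9), NK-like (6) and T-like cells (3), with adjusted p up to 0.115.

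**Figure D5:**
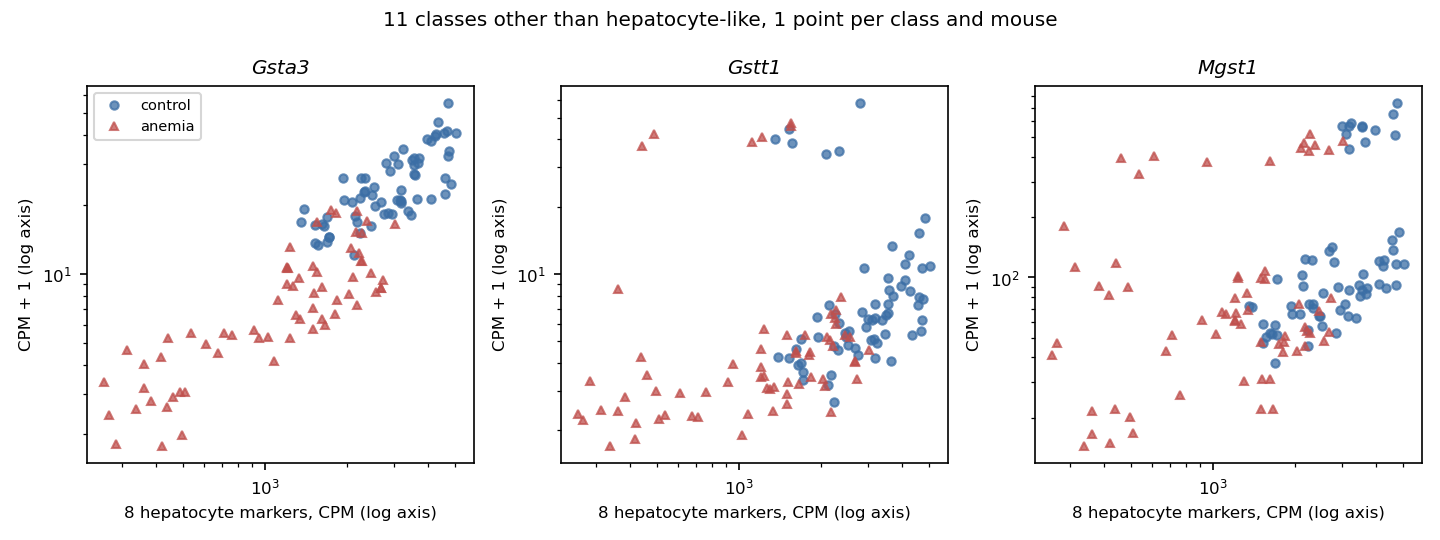
Level of Gsta3, Gstt1 and Mgst1 (CPM + 1, log axis) against the summed level of 8 hepatocyte markers (CPM, log axis) in the 11 classes other than hepatocyte-like, 1 point per class and mouse, control as blue circles and anemia as red triangles. Stellate-like cells lie above the other classes for Gstt1 (mean 40.9 CPM in controls), as do neutrophil-like and monocyte-like cells for Mgst1 (598 and 522 CPM). Points share libraries and classes.

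Gpx3, the secreted peroxidase, rose in endothelial-like and in stellate-like cells. Gpx3 (chr11:54902453-54910377) in endothelial-like cells ranged from 3.22 to 6.19 CPM in controls (TMM-scaled, median 5.58) and from 14.1 to 27.1 in anemic mice (median 18.1), without overlap (1.98 ± 0.20, adjusted p = 2.74e-05). In stellate-like cells it moved from 8.98 to 27.0 (median 11.1) to 31.2 to 55.6 (median 42.6), at 1.66 ± 0.23 (adjusted p = 0.000323). Both comparisons use the same mice. Gpx3 was higher in each of the 4 endothelial-like clusters in which it was tested, by 1.36 to 2.27, and was called in all 4. Members called numbered 3, 2, 3, 11, 4 and 0 in endothelial-like clusters 6, 34, 35, 36, 37 and 52, where 17.1%, 14.2%, 11.4%, 17.5%, 7.13% and 0.743% of all genes were called. Gpx3 was called in stellate-like cluster 0 (2.17) and not in cluster 50 (0.84). In macrophage-like cells, where Gpx3 is highest, it was at -0.30 and not called.

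Endothelial-like cells also had higher Gsto1 (33.3 to 38.7 against 39.3 to 64.6 CPM, 0.49 ± 0.10, adjusted p = 0.00454), and Gpx1, Sod2, Gclc and Gclm rose by 0.47, 0.42, 0.28 and 0.21. For Sod2 the highest of the 6 anemic mice was anemia 2, at 134 CPM, and without it the fold was 0.26. Without TMM factors Gpx1, Sod2, Gclc and Gclm were not called (adjusted p = 0.0544, 0.0864, 0.127 and 0.222), and with doublets left out Gpx1 and Gclm were not (0.0901 and 0.181). Cluster 34 held 48.8% of the endothelial-like cells of control and 20.0% of those of anemic mice, and cluster 36 held 14.7% and 31.0%. Gclc was at -1.02 in cluster 6 and -0.02 in cluster 52. The Sod2 call was lost without control 1, 2, 4, 5 or 6 or anemia 3 (adjusted p 0.0622 to 0.0812), and that of Gpx1 without control 4, control 6, anemia 2 or anemia 5 (0.0510 to 0.0548). In stellate-like cells Gclc rose from 70.7 ± 7.39 to 96.4 ± 2.28 CPM (0.45 ± 0.08, adjusted p = 0.00151), while it fell in hepatocyte-like cells, a difference that was not tested. Gsr rose by 0.55, Gstm2 by 0.73, Gstm1 by 0.66, Gpx1 by 0.61, Gstp1 by 0.52 and Gstm5 by 0.47. With doublets left out Gsr was at 0.29 (adjusted p = 0.171), Gstm5 at 0.31 (0.204) and Gclc at 0.35 (0.0642), and 48.5% of the cells of cluster 0 were called doublets. Gsta4, the alpha transferase for lipid aldehydes, fell from 13.2 ± 3.40 to 3.27 ± 2.00 CPM (-1.72 ± 0.27, adjusted p = 0.000647), without overlap. Hepatocyte RNA could give 10.1% of the control level of Gsta4 there. In stellate-like cluster 0 alone 6 members were called (6.52% of all genes), and in cluster 50 none was by edgeR (0.470%). Cluster 0, led by Ank3, Colec11 and Ntm, held 60.2% of the stellate-like cells of control and 32.8% of those of anemic mice. Cluster 50, led by the matrix genes Mfap4, Col1a1 and Col1a2, held 39.8% and 67.2%. The part of this shift in the changes of the class was not tested.

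In macrophage-like cells Gsr was higher, at 207 to 268 CPM in controls (median 225) and 274 to 468 in anemic mice (median 305), without overlap (0.50 ± 0.13, adjusted p = 0.0473). The highest value was that of anemia 2. Gstt2 was lower, at 18.3 to 30.8 against 7.55 to 15.5 (-1.05 ± 0.20, adjusted p = 0.0157), also without overlap, and hepatocyte RNA could give 1.71% of its control level. Gclm was lower by 0.33 on the log2 scale with overlapping groups (adjusted p = 0.0470). The calls of Gsr and Gclm were each lost when 1 mouse was left out, for 8 and 10 of the 12 mice, with adjusted p up to 0.123 and 0.105. Gclm was at 0.11 and 0.06 in clusters 3 and 5. In clusters 2, 3 and 5 alone, 2.96%, 0% and 0.589% of all genes were called. Cluster 3 held 2.67% of the macrophage-like cells of control and 19.3% of those of anemic mice.

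Granulocytes and dendritic cells had falls of glutathione enzymes. In neutrophil-like cells Mgst2, which also makes leukotriene C4, ranged from 49.5 to 76.5 CPM in controls and from 28.8 to 42.3 in anemic mice (-0.74 ± 0.13, adjusted p = 0.0199), without overlap. The call was lost without control 2, 3 or 4 (adjusted p up to 0.0608) and without TMM factors (0.0653). Cluster 7 held 34.5% of the neutrophil-like cells of control and 52.2% of those of anemic mice, and cluster 31 held 24.9% and 14.1%. In cluster 7 alone Mgst1 was at -0.65 (adjusted p = 0.114) and Mgst2 was not tested. Mgst2 was at 8.32 CPM in cluster 7 and 96.4 CPM in cluster 31 of control mice. In dendritic-like cells Gclc ranged from 162 to 309.9 and from 74.9 to 151 (-0.99 ± 0.19, adjusted p = 0.0198), and in cluster 33 alone, led by H2-Aa and H2-Eb1, it was at -1.17. Without control 4 its adjusted p was 0.0555. In B-like cells Prdx1 ranged from 821 to 1073 and from 586 to 734 (-0.44 ± 0.08, adjusted p = 0.00574), and hepatocyte RNA could give 16.1% of its control level.

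Erythroid-like cells, where Gpx1, Prdx2, Gclm and Mgst3 are highest, had 1 call. Gpx4 (chr10:80047166-80056439) ranged from 96.8 to 128 CPM in controls and from 148 to 171 in anemic mice, without overlap (0.58 ± 0.12, adjusted p = 0.0351). It was at 0.01 without TMM factors, which shifted the median of all genes in this class by -0.41, at 0.57 with globin genes left out, and its call was lost when 1 mouse was left out, for 10 of the 12 mice (adjusted p 0.0626 to 0.0931). The last 400 bases of Gpx4 shared 82.4% of their 60-base words with other genes. Gclm was at 1.02, Gpx1 at 0.55, Prdx2 at 0.17 and Cat at 0.50, and none was called. Within clusters 28, 30 and 43, whose median cell held 88 to 125 genes, Gclm was called at 1.00, 0.93 and 0.70 and Gpx4 at 1.14, 1.47 and 1.30 (4, 6 and 6 members called, and 6.59%, 6.63% and 7.92% of all genes). In cluster 28 the other called members were lower, Gsta3 at -1.71 (edgeR adjusted p = 0.000272) and Mgst1 at -0.92 (0.00263). The 8 hepatocyte markers summed to 3660 to 5067 CPM in erythroid-like cells of control and 496 to 2681 of anemic mice. The part of hepatocyte RNA in these falls was not tested. In cluster 57, led by Rhd and Hemgn with 831 genes per cell, no member was called by edgeR (0.304% of all genes) and Gclm was at 0.27. Cluster 28 held 62.1% of the erythroid-like cells of control and 37.4% of those of anemic mice.

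By edgeR on all cells of a class, Sod2 was not called in myeloid cells and Slc7a11 in no class. Sod2 in macrophage-like cells ranged from 191 to 289 CPM in controls, and anemic mice had 175, 1393, 548, 199, 190 and 226 CPM in order of mouse number. Anemia 2 was also the highest in monocyte-like (1889, next 855) and neutrophil-like cells (1128, next 283). Without anemia 2 the fold was 0.30, 0.27 and 0.13 in these classes. Slc7a11 was above 0 in all 12 classes, from 0.20 to 1.94, and was called in none by that test. In macrophage-like cells it was at 1.49, and DESeq2 called it there (1.49, adjusted p = 0.00722). EdgeR called it in the macrophage-like cells with less hepatocyte RNA (1.72, adjusted p = 0.0407), a split that does not separate RNA of neutrophils. Without anemia 2 Slc7a11 was at -0.12 in neutrophil-like, -0.03 in hepatocyte-like and 0.09 in monocyte-like cells, and was not tested in T-like and NK-like cells. Its highest fold was in T-like cells (adjusted p = 0.0779), where the 12 neutrophil markers summed to 57.8 to 99.7 CPM in control and 57.8 to 163 in anemic mice. Their part in that fold was not tested. Neutrophil-like cells, where Slc7a11 is highest, numbered 5602 in control and 8576 in anemic mice. The part of neutrophil RNA in the macrophage-like fold was not tested either.

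Whether the change of a member differed between classes was tested within mice (limma-trend on the difference of log2 CPM between 2 classes). Between hepatocyte-like and macrophage-like cells 21 of 32 members differed, where 43.2% of all genes did. Without TMM factors 14 of 32 differed, where 46.2% of all genes did. With TMM factors the largest differences were those of Gsta3 (1.63), Gstt2 (1.56), Gsta4 (1.51) and Gstt1 (1.33). All had the hepatocyte-like fold above the macrophage-like one, and Gstk1 (1.33) and Gstp1 (1.17) followed. Txnrd1 differed in the opposite direction (-0.42). Hepatocyte RNA could give most of the Gsta3 and Gstt1, but little of the Gstt2, measured in macrophage-like cells of control mice. Its part in these differences was not tested. Between hepatocyte-like and erythroid-like cells 10 of 30 differed (21.7% of all genes). The largest differences were those of Mgst1 (1.55), Gsta3 (1.51), Gstp1 (1.48) and Gsta4 (1.48), and Txnrd1 was at -0.80. Hepatocyte markers had a median of 4729 CPM in erythroid-like cells of control and 1908 of anemic mice. The part of hepatocyte RNA in the differences from erythroid-like cells was not tested either. Without TMM factors 4 of 30 differed (2.93% of all genes), and with doublets left out 5 of 30 did (9.23%). Between macrophage-like and erythroid-like cells none of 30 members differed in limma-trend (0.0730% of all genes), where 7 had an unadjusted p under 0.05.

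Of 47 other genes of the pathway, 41 were tested in hepatocyte-like cells, of which 22 rose and 8 fell (73.2% called, against 53.3% of all tested genes). Glrx (glutaredoxin) rose from 39.8 to 131 CPM (1.70), Cth (cystathionine gamma-lyase, which makes cysteine) from 294 to 968 (1.72) and Gstt3 from 6.75 to 33.9 (2.36). Sod3, the extracellular superoxide dismutase, went from 29.4 to 9.44 (-1.44), Hmox1 (heme oxygenase 1, an NRF2 target) from 53.5 to 29.4 (-1.01) and Txnip (the thioredoxin inhibitor) from 47.8 to 27.9 (-0.77). Cth was among the leading genes of cluster 23, and Sod3 among those of stellate-like cluster 0. Nfe2l2, which encodes NRF2 itself, rose in endothelial-like (0.40, adjusted p = 0.000447) and stellate-like cells (0.32, adjusted p = 0.0179). In the other classes, 7 of 45 were called in endothelial-like (18.6% of all genes), 3 of 45 in stellate-like (15.2%), 3 of 40 in preB-like (2.01%) and at most 1 in macrophage-like, neutrophil-like and erythroid-like cells. None was called by edgeR in the other 5 classes.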

How the data were processed

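Each of 12 livers (6 control, 6 anemic) gave 1 library of single cells. The authors deposited raw counts of UMIs for every gene in every barcode, made with Cell Ranger 7.0.0 per the file headers, on mm10 per the labels, without normalization. A cell was kept if it held between 500 and 50000 UMIs, no more than 50% of them mitochondrial (206146 of 207537 barcodes). Any 2 libraries shared 51 to 121 barcodes.

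Cells were clustered without the members (scanpy 1.11.5, igraph 0.11.9, Python 3.11.15, 2000 variable genes, 20 principal components, 20 neighbours, Leiden resolution 2) into 63 clusters, of which 40 were named from at least 3 raised markers. Clusters with over 50% of cells called doublets were left unnamed (19 clusters), a condition added after the clusters were seen, and other doublets were kept. Cluster 27 (4319 cells) was left unnamed as shallow, with few UMIs per cell. Another 1 (9174 cells) had more top genes from markers of another class, and 2 had under 3 markers raised.

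UMIs were summed per mouse and class, without mitochondrial and ribosomal protein genes, and compared with edgeR 4.0.16 (R 4.3.3, TMM, Benjamini-Hochberg). Differences of effects used limma 3.58.1. Tested on simulated data, edgeR recovered 95 of 100 hepatocyte-like, 86 of 100 macrophage-like and 69 of 100 erythroid-like genes changed by 1 on the log2 scale. The changed genes were few (100 by 1 and 100 by 2 among 11880 in hepatocyte-like cells) and went in either direction. Each had more UMIs than a test required. Far more hepatocyte-like genes were called in the data, so these figures do not give the power of the reported tests. Alternatives included DESeq2 1.42.0, other filters and scalings, other clusters, a replicate block and leaving out each mouse.

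The members and lists were chosen with earlier results of these data known. Full statistics were given for up to 5 called members per direction and class with at least 10 CPM, and for up to 3 other pathway genes per class. Members named beyond this rule were chosen after their values were seen. Coordinates are of GENCODE M21 on GRCm38. With 1 labelled batch, batch and group could not be compared. Depth limits the calls, since a class held from 139 cells of a mouse upward.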

Additional observations from a re-analysis of the deposited data

Results flagged for a closer look

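Single mice stood far from the others of their group in several named members, by the gap to the nearest mouse relative to the group's range (TMM-scaled CPM). Anemia 2 was high for Prdx2 in hepatocyte-like cells (450), Sod2 in endothelial-like cells (134), and Gsr in stellate-like (88.6) and macrophage-like cells (468). Control 3 was high for Gstm1 (89.1), Gstm2 (117) and Gpx3 (27.0) in stellate-like cells and for Mgst1 in neutrophil-like cells (892). Control 4 was low for Sod1 in hepatocyte-like cells (322), and anemia 5 was high for Gsta3 in NK-like cells (20.7). Over all tested members, 90 of 734 groups (12.3%) held such a mouse. Control 3 accounted for 32 of these and anemia 2 for 26. The threshold is set to flag about 1 in 20 independent groups of normally spread values. The groups here reuse the same 12 libraries on an unlogged scale, so an excess over chance was not tested.

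Differences of the log2 fold change between classes passed the limma-trend test for several named members. Hepatocyte-like minus erythroid-like cells gave 1.51 for Gsta3, 1.48 for Gstp1, -0.48 for Gclc and -0.80 for Txnrd1. Hepatocyte-like minus macrophage-like cells gave 1.63 for Gsta3, 1.56 for Gstt2, 1.33 for Gstk1, 1.17 for Gstp1, 0.88 for Gpx1, 0.67 for Prdx2, 0.63 for Gsto1, 0.58 for Gclm and -0.42 for Txnrd1. The 2 sets of differences share the hepatocyte-like values. Hepatocyte RNA could give most of the Gsta3 measured in erythroid-like and macrophage-like cells of control mice, and its part in these differences was not tested.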

How the results depend on the processing

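Of 42 named member and class pairs, other tests, filters, scalings and clusterings gave 447 fold changes, of which 392 kept their direction and side of the threshold, 53 lost the call and 2 reversed. Leaving out each mouse gave 432 fold changes that kept them, with 72 calls lost and 0 reversed. Single clusters, chosen after seeing the data, gave 99, with 51 calls lost and 10 reversed. The cause of these changes was not tested.

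The reversed fold changes were those of Gpx1 in hepatocyte-like clusters 21 (-0.10), 22, the largest cluster (-0.02), and 23 (-0.07), Prdx2 in clusters 20 (-0.0040) and 21 (-0.08), and Txnrd1 in cluster 23 (0.0034). Gclc reversed in endothelial-like clusters 6 (-1.02) and 52 (-0.02), and Gclm in macrophage-like clusters 3 (0.11) and 5, the largest cluster (0.06).

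Members called in clusters 20, 21, 22 and 23 alone were 6, 6, 4 and 7 in place of 24, and 4 in the largest hepatocyte-like cluster. Endothelial-like clusters 6, 34, 35, 37 and 52 gave 3, 2, 3, 4 and 0 in place of 8. Stellate-like clusters 0 and 50 gave 6 and 0 in place of 10. Macrophage-like clusters 3 and 5 gave 0 and 1 in place of 5. Erythroid-like clusters 28, 30, 43 and 57 gave 4, 6, 6 and 0 in place of 1. The largest cluster gave 0 in stellate-like and neutrophil-like, 1 in macrophage-like and monocyte-like, and 4 in erythroid-like cells. For neutrophil-like and monocyte-like cells the share of all genes called there is not given.

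DESeq2 called 1 member in monocyte-like, 1 in T-like and 2 in erythroid-like cells. Without TMM factors 4 were called in endothelial-like and 2 in erythroid-like cells, and 4 differed between hepatocyte-like and erythroid-like cells (2.93% of all genes). In that setting 14 differed between hepatocyte-like and macrophage-like cells (46.2% of all genes). Without a filter on low counts 1 was called in monocyte-like and 3 in erythroid-like cells. At a mean of at least 50 UMIs, 3 were called in macrophage-like, 1 in dendritic-like, 2 in B-like, with 0 in NK-like and T-like cells alike. With that filter 6 of 17 differed between hepatocyte-like and erythroid-like cells (47.9% of all genes). With the Y-linked covariate 3 were called in macrophage-like, 1 in monocyte-like and 2 in erythroid-like cells. Without doublets 1 was called in monocyte-like cells, and 5 differed between hepatocyte-like and erythroid-like cells (9.23% of all genes). In cells with less hepatocyte RNA 1 was called in monocyte-like, preB-like, NK-like and T-like and 0 in erythroid-like cells. Leiden resolution 1 gave 5 in NK-like cells and 1 each in T-like and neutrophil-like cells. The counts called within a class are not set beside the share of all genes called in each setting. A change particular to the members cannot be read from them.

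Mice of the same replicate number were not treated as pairs. Their deviations correlated at -0.23 to 0.34, with 28 of 72 over 0.1, and for replicate 4 at 0.10 to 0.34 over the classes. Differently numbered mice were not correlated, so whether the numbers pair the mice was not tested. The replicate block gave 1 call in monocyte-like, 1 in neutrophil-like and 0 in erythroid-like cells, without the share of all genes called beside these counts. It gave 6 differences between hepatocyte-like and erythroid-like cells (14.3% of all genes).

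Leaving out 1 mouse gave 23 to 25 called members in hepatocyte-like, 5 to 13 in endothelial-like, 8 to 13 in stellate-like, 2 to 5 in macrophage-like, 0 to 1 in monocyte-like, 2 to 4 in neutrophil-like, 2 to 4 in dendritic-like, 4 to 5 in B-like, 2 to 3 in preB-like, 0 to 3 in NK-like, 0 to 3 in T-like and 0 to 6 in erythroid-like cells. These counts are not set beside the share of all genes called without each mouse, so a change particular to the members cannot be read from them. The differing members numbered 5 to 15 for hepatocyte-like against erythroid-like (16.6% to 22.8% of all genes). They numbered 19 to 22 for hepatocyte-like against macrophage-like (38.8% to 45.3%) and 0 to 0 for macrophage-like against erythroid-like cells (0% to 0.184%). Members above the next class numbered 0 to 23, since without an anemic mouse 5 mice could not pass the threshold.

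All genes called over the alternatives ranged from 316 to 7008 in hepatocyte-like, 2133 to 3807 in endothelial-like and 61 to 3126 in stellate-like cells. The ranges were 51 to 1027 in macrophage-like, 9 to 337 in monocyte-like, 10 to 246 in neutrophil-like and 42 to 354 in dendritic-like cells. They were 103 to 591 in B-like, 122 to 458 in preB-like, 13 to 186 in NK-like, 10 to 235 in T-like and 15 to 173 in erythroid-like cells.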
